A study of Rattus norvegicus with 6 samples.

Results

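Voltage-gated sodium channel genes were examined in neurons from dorsal root ganglia (DRGs) at the levels L1 and L2, taken from spontaneously hypertensive rats (SHRs). The members were the 9 genes Scn1a, Scn3a, Scn8a, Scn9a, Scn10a, Scn11a, Scn2b, Scn3b and Scn4b, taken by gene name from the 25689 genes of the count table. Of these, 6 encode alpha subunits and 3 encode beta subunits, and all 9 passed the filter on low counts. One group had its perirenal adipose tissue surgically ablated (PRATA, n = 3) and the other was sham-operated (n = 3). All rats were wild type SHRs, labelled as 6 to 8 weeks old, while the study's methods give a higher age at purchase. The neurons were harvested 4 weeks after the operation from digested ganglia and washed off the dish while glia adhered, after a short culture, so the samples are enriched for neurons, not sorted. The labels do not say whether a sample came from 1 rat or from pooled rats, and p-values therefore measure the spread between these samples.

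A voltage-gated sodium channel consists of a large alpha subunit, which forms the pore and carries the current of the rising action potential, and smaller beta subunits, which modify its gating and anchor it in the membrane. In sensory neurons the alpha subunits differ in their block by tetrodotoxin (TTX). The channels Nav1.1, Nav1.3, Nav1.6 and Nav1.7, encoded by Scn1a, Scn3a, Scn8a and Scn9a, are sensitive to it, whereas Nav1.8 and Nav1.9, encoded by Scn10a and Scn11a, are resistant and are found mainly in nociceptors. These channels set the threshold and the firing of sensory neurons, including those whose endings lie in fat.

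Total counts per sample lay between 5892967 and 15226952, with sham replicate 2 the shallowest, and each member had at least 116 counts in every sample. The unit used below is CPM, the counts scaled to a common library size by TMM, in which 3 counts correspond to at most 0.468 CPM. Transcript lengths were not used here, so CPM values are compared between samples for 1 gene and not between genes. PRATA replicate 3 and sham replicate 1 stood apart from the other samples, with 98.9% and 99.5% of the reads of a pair of 7SL RNA copies on Rn7sl1, against at most 49.3% elsewhere. Values without these 2 samples are given for each member and for the sums. In a bulk sample, a change in the share of neurons and a change in RNA per neuron cannot be told apart.

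All 9 sodium channel genes had a higher fitted level after PRATA than after the sham operation, with a median log2 fold change of 0.45 and a range from 0.15 to 0.68, but none reached an adjusted p under 0.05. Over all 14919 genes tested the median was 0.02, and 52% of them had a log2 fold change over 0. At an unadjusted p under 0.05, edgeR called 1 of the 9 members, Scn3b, which is 11.1% of them beside a background of 18.3% in either direction, 8.19% upward and 10.1% downward. The groups did not overlap for Scn3b alone, again 11.1% of the members beside a background of 11.6% upward and 11.2% downward. With a log2 fold change over 1 as well, 0 members were called upward (background 1.17%). At an adjusted p under 0.05 the background was 0%, and edgeR called 0 members, DESeq2 called 0 (2.28% upward of the 10250 genes to which it gave an adjusted p), and limma voom with sample quality weights called 1, Scn3b (3% upward of the 14919 genes). Both shares of members lay near the background. Without the 2 samples that stood apart, the log2 fold changes ran from -0.19 for Scn11a to 0.70 for Scn3a. They were 0.54 for Scn3b (adjusted p = 0.432, edgeR), 0.48 for Scn8a, 0.31 for Scn9a, 0.27 for Scn1a, 0.19 for Scn4b, 0.14 for Scn2b and 0.10 for Scn10a. Paralogs share sequence, and how shared reads were counted is not given in the sources used here, so the split of reads between members is uncertain to that extent.

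**Figure D1:**
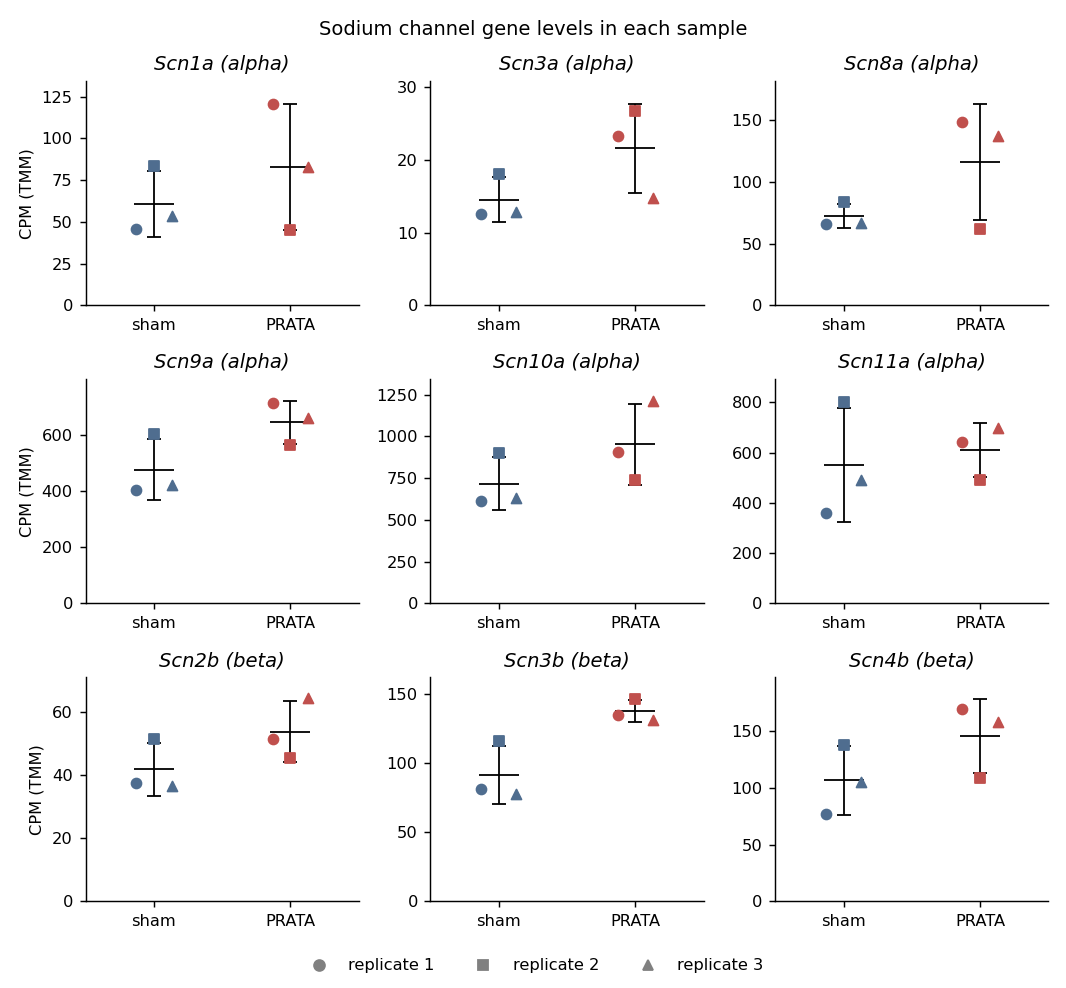
Level of each of the 9 sodium channel genes in CPM (vertical axes, linear from 0) in the 3 sham samples and the 3 PRATA samples; the marker shape gives the replicate number and the bars give the mean and SD. The groups are apart only for Scn3b, and sham replicate 2 is the highest sham sample in all 9 panels.

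Among the TTX-sensitive alpha subunits, Scn9a (ENSRNOG00000006639) encodes Nav1.7, which amplifies small depolarizations in nociceptive and sympathetic neurons. It was at 712, 562 and 661 CPM in PRATA replicates 1, 2 and 3, against 404, 602 and 422 CPM in the sham replicates in the same order. Only sham replicate 2 reached into the PRATA range. The means were 645 ± 76.3 CPM (SD, n = 3) for PRATA and 476 ± 109 CPM (SD, n = 3) for sham, a log2 fold change of 0.44 (standard error 0.23, 95% interval -0.09 to 0.97, adjusted p = 0.342, edgeR).

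Scn8a (ENSRNOG00000005309) encodes Nav1.6, the main channel of the nodes of Ranvier in myelinated axons. Its levels were 149, 61.8 and 137 CPM across PRATA replicates 1 to 3, against 66.1, 83.2 and 66.9 CPM across sham replicates 1 to 3. PRATA replicate 2 lay below every sham sample, while the other PRATA samples lay well above. The log2 fold change of 0.68 (standard error 0.31, 95% interval -0.04 to 1.41) was the highest of the family with all samples and had an adjusted p of 0.292 in edgeR. It was 0.43 without PRATA replicate 1, below Scn3b and Scn3a in the same fit, and 0.99 without PRATA replicate 2.

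Scn1a (ENSRNOG00000053122) encodes Nav1.1, which is found mainly in larger myelinated sensory neurons. It was at 120, 45.2 and 83.0 CPM after PRATA and at 45.8, 83.3 and 53.5 CPM after the sham operation. As with Scn8a, PRATA replicate 2 was the lowest of the 6 samples and PRATA replicate 1 the highest. The log2 fold change was 0.45 (standard error 0.37, 95% interval -0.39 to 1.29, adjusted p = 0.538, edgeR), and it was 0.05 without PRATA replicate 1, 0.25 without sham replicate 1, 0.75 without PRATA replicate 2 and 0.74 without sham replicate 2.

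Scn3a (ENSRNOG00000005007) encodes Nav1.3, an embryonic channel known to reappear in injured adult sensory neurons. Its counts were the lowest of the family, at 180, 336 and 187 reads in the PRATA samples and 183, 116 and 136 reads in the sham samples. This corresponds to 23.2, 26.8 and 14.8 CPM after PRATA and 12.6, 18.1 and 12.8 CPM after the sham operation. Here PRATA replicate 2 was the highest sample and PRATA replicate 3 fell inside the sham range. Its log2 fold change was 0.58 (standard error 0.27, 95% interval -0.04 to 1.20, adjusted p = 0.301, edgeR).

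Of the TTX-resistant alpha subunits, Scn10a (ENSRNOG00000032473) encodes Nav1.8, which carries most of the inward current of the nociceptor action potential. It was at 906, 739 and 1212 CPM across PRATA replicates 1 to 3, against 614, 899 and 634 CPM across sham replicates 1 to 3. PRATA replicate 2 lay below sham replicate 2, and PRATA replicate 1 just above it. The means were 952 ± 240 CPM (SD, n = 3) and 716 ± 159 CPM (SD, n = 3), a log2 fold change of 0.41 (standard error 0.27, 95% interval -0.20 to 1.02, adjusted p = 0.434, edgeR). It was 0.20 without PRATA replicate 3.

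Scn11a (ENSRNOG00000032884) encodes Nav1.9, a channel with a persistent current near the resting potential of small nociceptors. It was at 642, 491 and 699 CPM after PRATA and at 361, 803 and 490 CPM after the sham operation. The highest and the lowest of the 6 samples were both sham samples, so the sham group enclosed the whole PRATA group. Its log2 fold change of 0.15 (standard error 0.31, 95% interval -0.58 to 0.87, adjusted p = 0.836, edgeR) was the lowest of the family, and it was 0.52 without sham replicate 2, -0.10 without sham replicate 1 and -0.19 without both samples that stood apart.

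Among the beta subunits, Scn3b (ENSRNOG00000057221) encodes beta-3, which associates with alpha subunits without a covalent bond. It was at 135, 147 and 131 CPM across PRATA replicates 1 to 3, against 81.2, 116 and 77.9 CPM across sham replicates 1 to 3. The lowest PRATA sample was thus above the highest sham sample (p = 0.10 in a two-sided exact permutation test, which can go no lower with 3 samples against 3). The means were 138 ± 7.95 CPM (SD, n = 3) for PRATA and 91.6 ± 21.0 CPM (SD, n = 3) for sham. Its log2 fold change was 0.59 (standard error 0.20, 95% interval 0.14 to 1.04, unadjusted p = 0.0167, adjusted p = 0.200, edgeR), and its p ranked 1248 among the 14919 genes tested. Its adjusted p was 0.0383 in edgeR without sham replicate 2 (where 1.05% of all genes were called upward), and lay between 0.0383 and 0.551 over 14 alternatives.

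Scn4b (ENSRNOG00000026679) encodes beta-4, whose intracellular tail blocks open channels and gives rise to resurgent current in larger neurons. It was at 170, 109 and 158 CPM after PRATA and at 76.9, 138 and 105 CPM after the sham operation. PRATA replicate 2 lay between the sham samples. Its log2 fold change was 0.45 (standard error 0.26, 95% interval -0.15 to 1.05, adjusted p = 0.383, edgeR). It was 0.24 without sham replicate 1 and 0.68 without sham replicate 2.

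Scn2b (ENSRNOG00000016221) encodes beta-2, which is linked to the alpha subunit by a disulfide bond and promotes its transport to the surface. It was at 51.2, 45.4 and 64.2 CPM across PRATA replicates 1 to 3, against 37.5, 51.4 and 36.5 CPM across sham replicates 1 to 3. PRATA replicates 1 and 2 lay below sham replicate 2. Its log2 fold change was 0.36 (standard error 0.21, 95% interval -0.12 to 0.85, adjusted p = 0.390, edgeR). It was 0.21 without PRATA replicate 3.

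**Figure D2:**
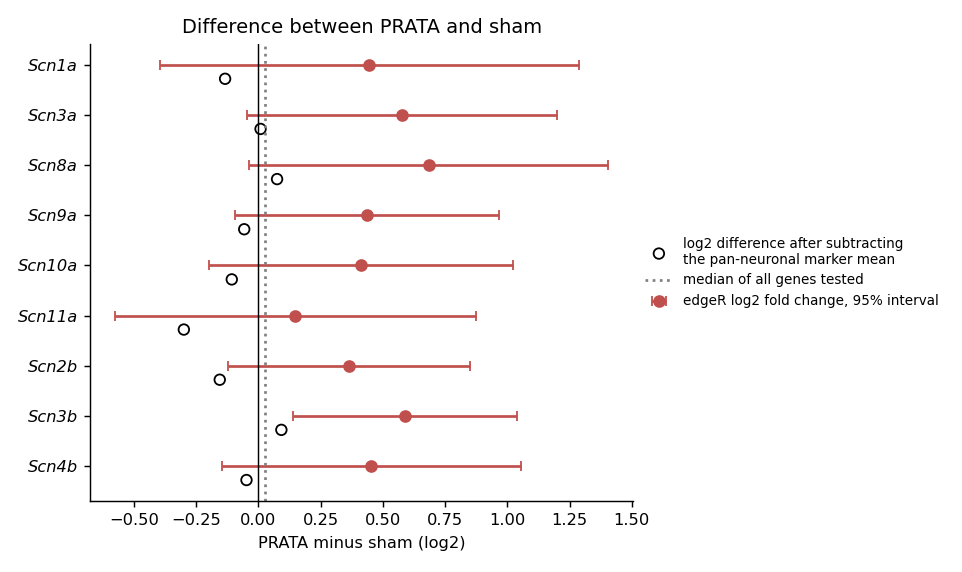
Difference between PRATA and sham on the log2 scale (horizontal axis) for each of the 9 genes; filled circles with bars are edgeR log2 fold changes with 95% intervals, open circles are differences after the mean log2 level of 15 neuronal markers was subtracted in each sample, and the dotted line is the median of all genes tested. The filled circles lie between 0.15 and 0.68 and the open circles between -0.30 and 0.09.

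The samples of 1 group differed from each other in a way that most members shared. Within the sham group, replicate 2 was the highest sample for 9 of 9 members and replicate 1 the lowest for 7. Within the PRATA group, replicate 2 was the lowest sample for 7 members. The other two, Scn3a and Scn3b, were at their highest there. Over all 6 samples, PRATA replicate 2 was the highest for 2 members, Scn3a and Scn3b, and the lowest for 2, Scn1a and Scn8a.

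The summed level of the 6 alpha subunits was 2552, 1925 and 2806 CPM in PRATA replicates 1, 2 and 3, against 1504, 2488 and 1679 CPM in the sham replicates in the same order. The sum averaged 1.28 times as high after PRATA, with overlapping groups (exact permutation test, two-sided, p = 0.20). The summed level of the 3 beta subunits was 357, 301 and 354 CPM after PRATA and 196, 305 and 220 CPM after the sham operation, on average 1.40 times as high (exact permutation test, two-sided, p = 0.20). In both sums, sham replicate 2 lay above PRATA replicate 2 and kept the groups from separating. Without the 2 samples that stood apart, the log2 ratio of the sums was 0.10 for the alpha subunits and 0.33 for the beta subunits, beside 0.36 and 0.49 in all samples. The alpha value was 0.61 without sham replicate 2 and 0.22 without sham replicate 1.

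Neuronal markers moved with these sums. A list of 15 pan-neuronal genes, such as Tubb3, Uchl1, Stmn2 and Map2, summed to 17850, 13019 and 18457 CPM in PRATA replicates 1, 2 and 3, against 8687, 13201 and 10732 CPM in the sham replicates in the same order. All 15 had a log2 fold change over 0, with a median of 0.46, close to the 0.45 of the sodium channel genes. Ordered by this sum, the 6 samples fell in the same order as by the summed alpha subunits, from PRATA replicate 3 down to sham replicate 1. For the beta subunits the order differed only in its top 2 samples. The part of neuronal content in the higher sodium channel levels was not tested by itself, and the levels were set beside the markers in each sample.

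**Figure D3:**
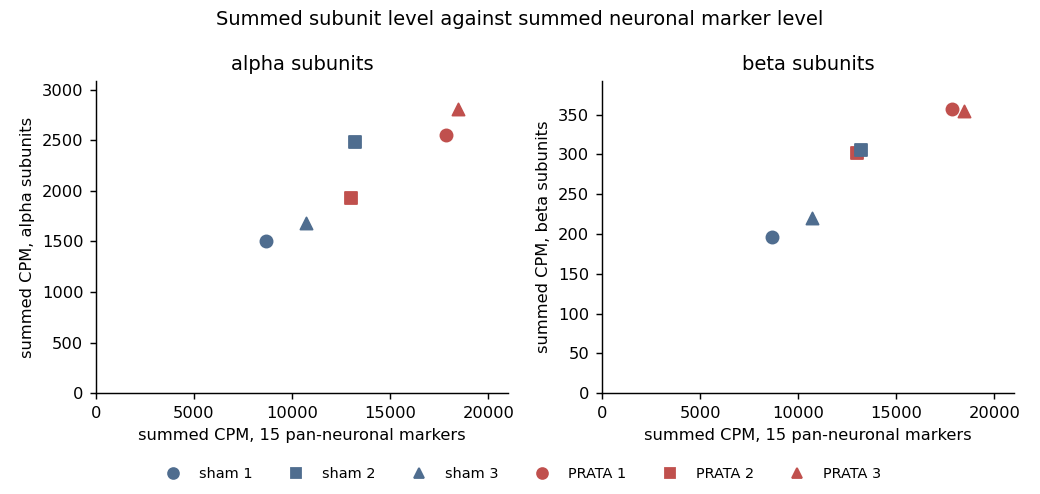
Summed CPM of the 6 alpha subunits (left) and the 3 beta subunits (right) against the summed CPM of 15 pan-neuronal markers (horizontal axes), 1 point per sample, with colour for the group and shape for the replicate number. Sham replicate 1 is lowest on every axis, and sham replicate 2 and PRATA replicate 2 sit side by side on the marker axis at 13201 and 13019 CPM.

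After the mean log2(CPM + 1) of the 15 pan-neuronal markers was subtracted in each sample, the difference between PRATA and sham was negative for 6 members and positive for 3, with overlapping groups for all 9. These differences ran from -0.30 for Scn11a to 0.09 for Scn3b, with a median of -0.06 (exact permutation tests, two-sided, adjusted p = 0.9 for each of the 9). For Scn3b the relative level ran from -2.16 to -1.66 in the PRATA samples and was -1.79, -2.06 and -2.25 in the sham samples, so the separation seen in CPM was absent. For Scn11a it was 0.08, 0.08 and 0.40 after PRATA and 0.35, 0.73 and 0.39 after the sham operation, where PRATA replicate 3 lay between the sham samples. For 7 of the 9 members, the sign of the relative difference changed when 1 sample or another setting was varied, the exceptions being Scn11a and Scn2b, which were lower in all. Eno2, 1 of the 15 markers, was at 19.6 CPM in PRATA replicate 3 and 12.6 CPM in sham replicate 1, against 80.3 to 128 CPM in the other samples. It lowers the marker mean, and so raises every relative level, in those samples.

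Taken as a ratio of sums, the alpha subunits had 14.3, 14.8 and 15.2 CPM for every 100 CPM of pan-neuronal markers in the PRATA samples and 17.3, 18.8 and 15.6 in the sham samples. By this measure the highest PRATA sample was below the lowest sham sample (p = 0.10, two-sided exact permutation test). The ratio, which was chosen after the values were seen and averaged 14.8 for PRATA and 17.3 for sham, has the intermediate filament genes Nefl, Nefm and Prph as 53.0% to 61.4% of its marker sum. With the other 12 markers alone the ratio was 36.5, 31.5 and 39.4 after PRATA and 40.6, 41.7 and 38.1 after the sham operation, with means of 35.8 and 40.1, and the groups overlapped (exact permutation test, two-sided, p = 0.20). The beta subunit ratio overlapped in both cases.

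The markers of neuron classes and of other cells gave the following. Of 10 nociceptor genes, including Calca and Trpv1, all had a log2 fold change over 0, with a median of 0.45 and sums of 2034 to 2786 CPM after PRATA and 1406 to 2227 CPM after the sham operation. Of 9 genes of large-diameter sensory neurons, 7 were above 0, with sums of 2727 to 4170 CPM and 2565 to 3827 CPM. The 2 below 0 were Ntrk2 at -1.04 and Spp1 at -0.60. Ntrk2 was at 207, 346 and 205 CPM after PRATA and at 565, 357 and 635 CPM after the sham operation. Ordered by Ntrk2, the samples fell as they did by the glial gene Sox10 below, and which cells the Ntrk2 reads came from was not tested. At an unadjusted p under 0.05 edgeR called 1 of the 9 upward (11.1% beside a background of 8.19%) and 1, Ntrk2, downward (background 10.1%). The non-neuronal lists overlapped between the groups in their sums: 14 genes of Schwann and satellite glia summed to 1068 to 2244 CPM after PRATA and 1184 to 2165 CPM after the sham operation, 9 fibroblast genes to 347 to 2020 and 926 to 1874 CPM, 10 macrophage genes to 85.6 to 318 and 68.5 to 171 CPM, and 9 endothelial and mural genes to 108 to 188 and 73.0 to 201 CPM. Of the 14 glial genes, 6 had a log2 fold change over 0 and 8 below. At an unadjusted p under 0.05 edgeR called 1 upward (7.14% beside a background of 8.19%) and 2 of the 14 downward (background 10.1%). Sox10, the transcription factor of the glial lineage, was at 59.9, 88.4 and 42.0 CPM after PRATA and at 214, 109 and 267 CPM after the sham operation, with a log2 fold change of -1.63 (unadjusted p = 0.00240, adjusted p = 0.156, edgeR). The others were Cadm4 at -1.02 and Prx, which encodes the myelin protein periaxin, at 1.39. These 3 were named after their values were seen. Markers of glia and connective tissue were therefore present in every sample beside the neuronal ones, and no listed marker was at 0 in all samples. Their part in the sodium channel levels was not tested.

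The composition of the family does not depend on the scaling of the libraries. Counts of 15941 to 35490 reads on the alpha subunits stand behind each sample's shares, which also depend on transcript length. Scn10a and Scn11a together held 60.7%, 63.9% and 68.1% of the alpha subunit counts in PRATA replicates 1, 2 and 3, against 64.8%, 68.4% and 66.9% in the sham replicates in the same order. The 95% Wilson intervals of the lowest and the highest PRATA share, 60.0% to 61.3% and 67.6% to 68.6%, cover counting error only. The mean share of the TTX-resistant genes was 64.2% ± 3.73 (SD, n = 3) for PRATA and 66.7% ± 1.79 (SD, n = 3) for sham, with overlapping groups (exact permutation test, two-sided, p = 0.40). The difference of -2.51 percentage points was -0.74 without PRATA replicate 1, -1.67 without sham replicate 2, -4.46 without PRATA replicate 3 and -5.40 without both samples that stood apart.

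**Figure D4:**
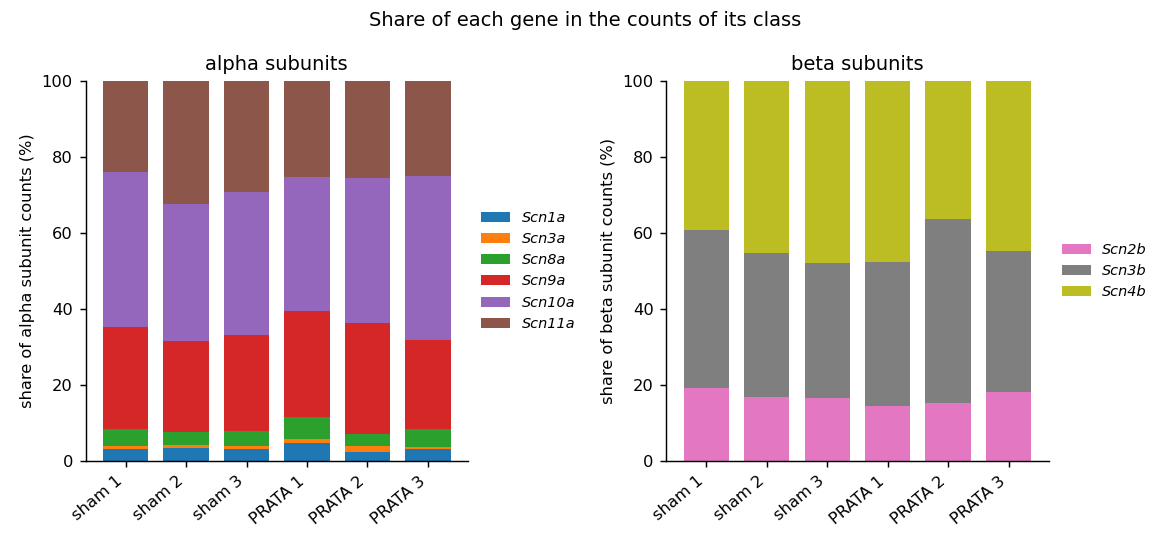
Share of each gene in the counts of the 6 alpha subunits (left) and of the 3 beta subunits (right), in percent of that class (vertical axes), 1 stacked bar per sample. Scn10a, Scn11a and Scn9a fill most of each alpha bar, and Scn3b reaches its highest share of the beta counts, 48.6%, in PRATA replicate 2.

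The share of Scn11a averaged 25.2% ± 0.307 (SD, n = 3) for PRATA and 28.5% ± 4.19 (SD, n = 3) after the sham operation. Its values were 25.2%, 25.5% and 24.9% in the PRATA samples and 32.3% and 29.2% in sham replicates 2 and 3, while sham replicate 1 lay below all PRATA samples. The difference of -3.29 percentage points was -1.39 without sham replicate 2 and -5.53 without sham replicate 1. Scn10a held 35.5%, 38.4% and 43.2% after PRATA and 40.8%, 36.1% and 37.7% after the sham operation. The highest Scn10a share in each group belonged to the samples with most 7SL reads on Rn7sl1, PRATA replicate 3 and sham replicate 1. Scn9a held between 23.6% and 29.2% in all samples, and its difference of 1.47 percentage points was 3.87 without both samples that stood apart.

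The shares of the alpha subunits of lower counts varied more within the PRATA group than within the sham group, as did those of Scn9a and Scn10a. Scn1a held 4.72%, 2.35% and 2.96% of the alpha subunit counts in the PRATA samples, while the sham samples stayed between 3.05% and 3.35%. Scn8a ran from 3.21% to 5.82% after PRATA and from 3.34% to 4.39% after the sham operation. Scn3a ran from 0.527% to 1.39% after PRATA and from 0.728% to 0.841% after the sham operation. In PRATA replicate 2 the shares of Scn1a and Scn8a were thus at their lowest and that of Scn3a at its highest of all samples.

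Among the beta subunits, Scn3b held 37.9%, 48.6% and 37.1% of the class in the PRATA samples and 41.5%, 38.0% and 35.5% in the sham samples. Scn4b held 47.8%, 36.3% and 44.8% after PRATA and 39.3%, 45.2% and 47.9% after the sham operation. Scn2b held between 14.4% and 19.2% in all samples. The groups overlapped for all 9 shares (exact permutation tests, two-sided, adjusted p of 0.9 or higher).

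The proteins that anchor sodium channels in the axon were examined from a list of 20 partners, of which 17 were tested. Of these, 13 had a log2 fold change over 0, with a median of 0.24, and 3 had an unadjusted p under 0.05 upward and 0 downward (17.6% upward beside the background of 8.19%). The groups did not overlap for 6 upward (35.3% beside 11.6%) and 1 downward. Among the 15 pan-neuronal markers, 26.7% were called upward at that p and 33.3% were apart upward. Both shares were 30% for the 10 nociceptor genes and 11.1% for the 9 genes of large-diameter sensory neurons. None of the partners had an adjusted p under 0.05 in edgeR. Sptbn4, the beta-IV spectrin of axon initial segments and nodes, was at 105, 91.4 and 86.2 CPM across PRATA replicates 1 to 3, against 62.8, 47.1 and 59.6 CPM across sham replicates 1 to 3, a log2 fold change of 0.73 (standard error 0.18, unadjusted p = 0.00301, adjusted p = 0.156, edgeR). Nfasc, which encodes the node adhesion protein neurofascin, was at 224, 153 and 175 CPM after PRATA and 88.2, 125 and 93.6 CPM after the sham operation, with a log2 fold change of 0.85 (unadjusted p = 0.00426, adjusted p = 0.167, edgeR).

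Cntn1, which encodes the adhesion protein contactin-1, was at 477, 386 and 437 CPM after PRATA and at 276, 317 and 299 CPM after the sham operation, with a log2 fold change of 0.54 (unadjusted p = 0.0184, adjusted p = 0.206, edgeR). Fgf14, an intracellular fibroblast growth factor that binds the tail of the alpha subunit, was at 1.94, 1.35 and 1.19 CPM after PRATA and 0.553, 0.624 and 0.850 CPM after the sham operation, with a log2 fold change of 1.12 (unadjusted p = 0.0525, adjusted p = 0.277, edgeR). The Fgf14 level in sham replicate 2 lay just above the 0.468 CPM that 3 counts make there. These 4 partners were chosen by their p, so their lack of overlap is a description. In other partners sham replicate 2 was above all PRATA samples, as in Fgf13, another intracellular fibroblast growth factor, at 259 CPM against 214 to 245 CPM. Ank3, which encodes the anchor protein ankyrin-G, overlapped between the groups, with a log2 fold change of 0.31 (adjusted p = 0.500, edgeR).

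Over the 6 samples, the genes whose log2 levels ran most like the mean of the 6 alpha subunits were Faim2, Synj1 and Gabbr2, each with a Pearson r of 0.997, given as a description of 6 libraries that share their neuronal content and scaling. Faim2 had a log2 fold change of 0.47, Synj1 of 0.34 and Gabbr2 of 0.47.

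The stretches of DNA before the start of the genes are shown for Scn3a and Scn11a, whose sample pattern or change departed from the rest. Scn2b is shown because it holds the same motif as Scn3a. The sequences are the 250 bases before the start in RefSeq's GRCr8 build, written 5′ to 3′ on the strand of the gene, and 7 of the 9 members had an entry. Scn1a and Scn3b had none, so Scn3b, which shared the pattern of Scn3a over the PRATA samples, could not be shown. Capitals mark the Runx motif TGTGGT on either strand.
Scn3a, chr3:70666199-70666448, minus strand: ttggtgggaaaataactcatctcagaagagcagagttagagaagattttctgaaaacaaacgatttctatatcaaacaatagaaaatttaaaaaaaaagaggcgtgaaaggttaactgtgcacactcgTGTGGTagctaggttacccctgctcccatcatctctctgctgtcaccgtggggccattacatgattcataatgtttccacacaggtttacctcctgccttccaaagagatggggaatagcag
Scn2b, chr8:54322133-54322382, plus strand: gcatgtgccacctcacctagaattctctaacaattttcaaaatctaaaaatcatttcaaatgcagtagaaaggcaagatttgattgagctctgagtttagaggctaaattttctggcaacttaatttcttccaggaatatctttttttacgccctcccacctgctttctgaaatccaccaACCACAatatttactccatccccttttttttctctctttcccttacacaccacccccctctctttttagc
Scn11a, chr8:128444719-128444968, minus strand: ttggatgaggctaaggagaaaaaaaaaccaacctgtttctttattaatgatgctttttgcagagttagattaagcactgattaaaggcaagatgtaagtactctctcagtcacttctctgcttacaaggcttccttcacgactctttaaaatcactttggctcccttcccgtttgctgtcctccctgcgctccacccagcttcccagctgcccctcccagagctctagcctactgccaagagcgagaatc
A set of 6 motifs was searched on both strands: the TATA box TATAAA, the CCAAT box CCAAT, the GC box GGGCGG, the cAMP response element TGACGTCA, the POU octamer ATGCAAAT and the Runx motif TGTGGT. The Runx motif was present in Scn3a and Scn2b and in 14.5% of all 33469 promoters of this length. The GC box was present only in Scn8a, in 6 copies, and in 30.5% of all promoters. The GC content of these stretches ran from 38.8% in Scn2b to 86.0% in Scn8a, beside a median of 51.2% over all promoters. Scn2b and Scn4b, which lie on the same chromosome, differed widely, with 1 and 21 CpG sites. A match describes these letters only.

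**Figure D5:**
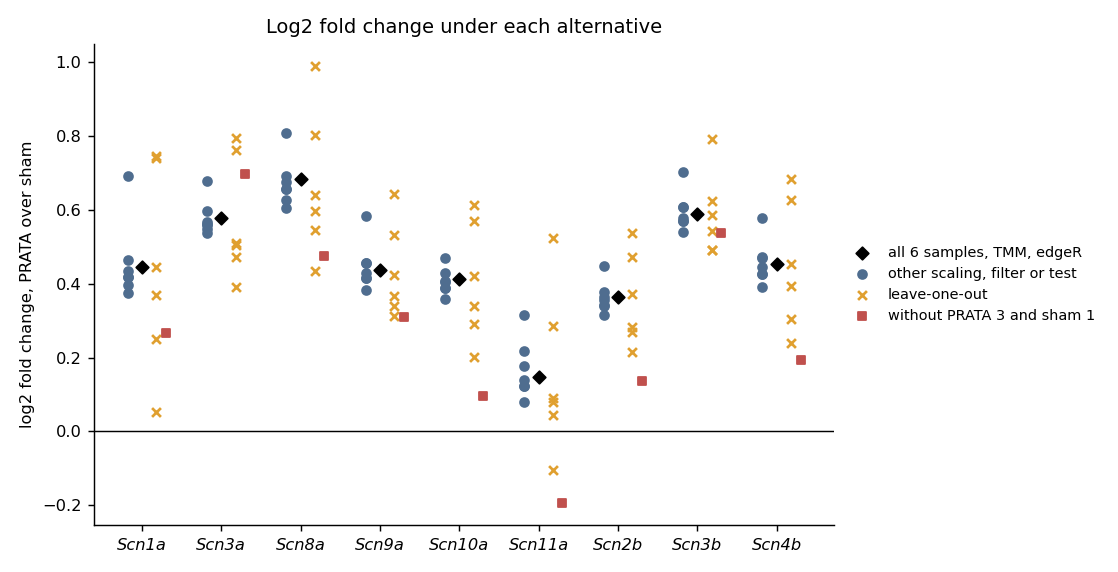
Log2 fold change of PRATA over sham (vertical axis) for each of the 9 genes under every alternative: diamonds are the fit to all 6 samples, circles other scalings, filters or tests, crosses the fits with 1 sample left out, and squares the fit without PRATA replicate 3 and sham replicate 1. Scn11a is the only gene with values below 0, of which the lowest is -0.19.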

How the data were processed

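RNA of L1-L2 DRG neurons was sequenced in 3 PRATA and 3 sham samples. The deposited values are raw counts of reads per gene, made by the authors without normalization. The submitters' processing notes name STAR 2.7.3a, RSEM and DESeq2 with no role, whereas the study's methods name HISAT2, StringTie and Cuffdiff. Which of these made the counts, how reads shared by paralogs were counted, which genome build was used and which annotation are not given in the sources used here. No column belonged to another series.

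Genes were filtered with edgeR's filterByExpr (minimum count 10, minimum total 15), which kept 14919 of 25689 genes. Counts were scaled by TMM. PRATA was compared with sham over all genes by edgeR's quasi-likelihood test, two-sided, without covariates, with p-values adjusted by Benjamini-Hochberg over every gene in the fit. Cuffdiff's comparison of FPKM values could not be rerun on counts. CPM values are TMM-normalized and given with their SD. Standard errors were derived from the test statistic. Single values per sample were compared by exact permutation tests, two-sided. Intervals of shares are Wilson intervals at 95%, which cover counting error only, as does the floor of 3 counts. Neuronal marker means are of log2(CPM + 1). R 4.3.3, edgeR 4.0.16, limma 3.58.1, DESeq2 1.42.0, Python 3.11.15 and scipy 1.17.1 were used, and the fit was tested on simulated data.

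The members, the lists of partners and markers and the alternatives were chosen with earlier results of these data known. The rule for the genes named was all 9 members, the 4 channel partners with the smallest unadjusted p, and the 3 genes most like the alpha subunits over the samples. Calm2, which has 2 rows in the table, was left out of the partners. Alternatives were scaling by DESeq2's size factors or by library size, dropping the filter, requiring 10 counts in each sample, testing with DESeq2 or with limma voom and sample quality weights, a replicate block, each sample left out, and the samples PRATA 3 and sham 1 left out together. The replicate numbers do not pair the samples in the labels, so the block is an alternative.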

Additional observations from a re-analysis of the deposited data

How the results depend on the processing

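All 9 members kept a log2 fold change over 0 under the 14 alternatives, except Scn11a, which was -0.10 without sham replicate 1 (-0.10 to 0.52 over the fits with 1 sample left out) and -0.19 without PRATA replicate 3 and sham replicate 1. The count of members with an adjusted p under 0.05 was 0 to 1 with 1 sample left out (1 without sham replicate 2) and 1 with limma voom and quality weights, in both cases Scn3b. These settings called 1.05% and 3% of all genes upward. The quality weights were lowest for sham replicate 2, at 0.472, and highest for PRATA replicate 1, at 2.24. Both settings thus discounted sham replicate 2. The count of members at an unadjusted p under 0.05 was 3 without a filter, 2 with DESeq2, 7 with limma voom and quality weights, and 0 to 6 with 1 sample left out (0 without sham replicate 1 or sham replicate 3, 2 without PRATA replicate 2 or PRATA replicate 3, 6 without sham replicate 2). Over all genes, in either direction, 2734 of 14919 passed that p with all samples in edgeR. It was 3476 of 25689 without a filter, 4606 of 14919 with limma voom and quality weights, and 2758 of the 14919 genes given to DESeq2. Without 1 sample it was 4254 of 15438 (sham replicate 2), 2364 of 15360 (sham replicate 1) and 1471 of 15758 (sham replicate 3). For the PRATA samples it was 1406 of 15774 (without replicate 1), 2371 of 15408 (without replicate 2) and 2000 of 15323 (without replicate 3). Every member called was higher after PRATA, whereas these counts over all genes hold both directions. With the replicate block 0 members passed the adjusted p and 1 the unadjusted p (1528 of all 14919 genes). Scn3b then had a log2 fold change of 0.61 (adjusted p = 0.462, edgeR). Samples with the same number did not deviate together from the mean of their group, with correlations across genes of -0.39, -0.10 and -0.36. Deviations within groups of 3 samples cannot decide whether the samples were paired, and the labels do not pair them.
The difference in share (percentage points, PRATA minus sham) changed sign for Scn1a (-0.54 to 0.64 with 1 sample left out), Scn3a (-0.0591 to 0.37 with 1 sample left out), Scn10a (-1.31 to 2.54 with 1 sample left out, -0.0068 without PRATA replicate 3 and sham replicate 1), Scn3b (-0.83 to 4.95 with 1 sample left out) and Scn4b (-3.64 to 2.11 with 1 sample left out). The difference relative to neuronal markers (log2) changed sign for Scn1a (-0.36 to 0.15 with 1 sample left out), Scn3a (-0.25 to 0.24 with 1 sample left out), Scn8a (-0.10 to 0.38 with 1 sample left out), Scn9a (-0.14 to 0.0331 with 1 sample left out, 0.0137 with the nociceptor list, 0.0088 without PRATA replicate 3 and sham replicate 1), Scn10a (-0.30 to 0.0121 with 1 sample left out), Scn3b (-0.0486 to 0.21 with 1 sample left out) and Scn4b (-0.12 to 0.0514 with 1 sample left out, 0.0228 with the nociceptor list).
The causes of these changes were not tested. Shares per coding length were not run, since coding lengths were not used here. Over all genes the adjusted calls were 0 in edgeR with all samples, 744 with DESeq2 and 1173 with limma voom and quality weights. With 3 samples a group, no exact permutation test can go below 0.10.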
